A study of Mus musculus with 249 samples.

Results

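The Nanog, Dppa3 and Gdf3 cluster was followed through a set of multiplex-GAM libraries of mouse embryonic stem cells. The locus was taken as every row of the 40 kb table in the span chr6:121000001-124000000 of the mouse assembly mm9, which gave 75 windows of the 3738 on that chromosome and of the 68162 in the whole table. The cluster itself was the 6 windows of chr6:122480001-122720000, of which the 4 from chr6:122520001-122680000 are called the inner windows. The windows were selected by their coordinates and not by a measured value.

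All libraries were made from untreated cells of the 46C line, labelled strain 129/Ola, which were plated in serum-free ESGRO medium for the day before harvest. In genome architecture mapping (GAM), cells are cut into cryosections, here 220 nm thick, profiles of nuclei are cut out with a laser into tubes, and the DNA in a tube is then sequenced, so that loci close together in the nucleus tend to be found in the same tube. The titles give 4 profiles for each tube, while the series description gives an average of 3. A window counts as positive in a library or not, and the depth behind a call is unknown. By their titles the libraries form 20 groups in 11 experiments, which differ in the handling of sections and in the amplification, and not in the cells. These were tests of wga-reagent-volumes (protocol-a, protocol-b and protocol-c), pk-volume-titration (1ul-mdc-pk and 2ul-mdc-pk), freezing-after-incubation (frozen-post-incubation and unfrozen), early-freezing-test (frozen-early and frozen-late), wga-pcr-cycles-test (20, 23 and 25 cycles), cresyl-violet-test (cresyl-violet and unstained) and large-vs-small-kit (large-kit and small-kit). The unstained arms of pi-staining-and-freezing, sybrgold-test and eosin-test complete the set with the full-collection, 54 libraries whose sections had cresyl violet stain. For the sybrgold-test and for the proteinase K volumes the protocol text disagrees with the titles, and the titles were followed. Nothing in the labels says that the libraries came from separate cultures, so every p-value measures the spread between libraries.

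Nanog encodes a homeodomain transcription factor that maintains the naive pluripotent state. Dppa3, also called Stella, encodes a maternal factor that protects DNA methylation in the zygote and marks primordial germ cells, and Gdf3 encodes a ligand of the transforming growth factor beta superfamily. These neighbours are all transcribed in pluripotent cells, and enhancers about 45 kb upstream and 60 kb downstream of the Nanog start are described in mouse embryonic stem cells. Between and beside them lie genes of other functions, among them Apobec1, which encodes an RNA-editing deaminase, and Slc2a3, which encodes a glucose transporter.

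In the GENCODE vM1 annotation of mm9, Nanog occupies chr6:122657507-122664651 on the plus strand and lies wholly in the window chr6:122640001-122680000, which also reaches into the end of Slc2a3. Dppa3 occupies chr6:122576428-122580290 on the plus strand, with its start 81.1 kb before that of Nanog, in the window chr6:122560001-122600000. Gdf3 occupies chr6:122555421-122560105 on the minus strand and is split by a window border. Its start site lies in the window of Dppa3, but only 105 of its 4685 bases do, and the other 4580 bases lie in the window before, chr6:122520001-122560000, together with Apobec1. A value of the Dppa3 window is therefore also the value of the Gdf3 start, and no measurement here separates them. The window that holds the position 45 kb upstream of the Nanog start, chr6:122600001-122640000, overlaps no protein-coding gene. The window that holds the position 60 kb downstream, chr6:122680001-122720000, lies within Slc2a3.

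The 250 bases upstream of each annotated start are given here because these starts define which windows stand for the members. They are written 5′ to 3′ on the strand of the gene, from chr6:122657257-122657506 (plus) for Nanog, chr6:122576178-122576427 (plus) for Dppa3 and chr6:122560106-122560355 (minus) for Gdf3, all in mm9. Capitals mark an octamer core, TTTGCAT, and a Sox core, ACAATG, the elements recognised by the factors Oct4 and Sox2, both searched on both strands.
Nanog: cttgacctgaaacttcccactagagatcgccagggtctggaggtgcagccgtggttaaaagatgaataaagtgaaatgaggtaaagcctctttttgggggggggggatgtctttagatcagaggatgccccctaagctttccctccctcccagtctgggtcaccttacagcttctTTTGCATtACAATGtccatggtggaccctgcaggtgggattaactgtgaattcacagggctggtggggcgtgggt
Dppa3: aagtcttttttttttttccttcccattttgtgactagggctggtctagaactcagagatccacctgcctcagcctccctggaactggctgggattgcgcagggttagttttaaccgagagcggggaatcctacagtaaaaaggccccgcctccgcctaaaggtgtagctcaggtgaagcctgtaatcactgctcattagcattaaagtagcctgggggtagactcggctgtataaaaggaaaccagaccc
Gdf3: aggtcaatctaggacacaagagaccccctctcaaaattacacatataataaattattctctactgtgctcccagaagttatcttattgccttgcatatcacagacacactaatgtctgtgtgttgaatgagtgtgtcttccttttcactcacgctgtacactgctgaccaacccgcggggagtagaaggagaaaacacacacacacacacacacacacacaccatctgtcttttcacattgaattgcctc

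The Nanog sequence held an octamer core at bases 176 to 182 and a Sox core at bases 184 to 189, counted from the 5′ end, on the strand of the gene and 1 base apart. Of the 1171 upstream sequences of this length of protein-coding genes on chromosome 6, 5.72% held the octamer core and 11.0% the Sox core, while the arrangement TTTGCATNACAATG was held by 1, that of Nanog. The sequences of Dppa3 and Gdf3 held 0 matches to either core, which says only that these letters are not in these bases. A window of 40 kb does not resolve such elements, and the values below belong to whole windows.

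The Nanog window was the most often detected window of the locus. It was positive in 82 libraries, or 32.9% of all, against a median of 50 libraries over the windows of chromosome 6, and 11 other windows of the chromosome were positive in as many libraries or more. The Slc2a3 window after it was positive in 70 libraries and the gene-free window before it in 68. The Dppa3 window was positive in 59 libraries and the window with the body of Gdf3 and Apobec1 in 47. Detection thus fell away from Nanog on both sides and was lowest, within the cluster, in the window of the Gdf3 body.

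When the 6 cluster windows were ranked by the number of positive libraries, windows next to each other in rank did not pass a test of their discordant libraries (exact McNemar tests, two-sided, 5 comparisons, adjusted p from 0.313 to 0.875). The members themselves were further apart. The Nanog window was positive without the Dppa3 window in 31 libraries and the Dppa3 window without the Nanog window in 8 (exact McNemar p = 0.000294, adjusted p = 0.000735 over the 5 comparisons of the Nanog window, a set chosen after its count was seen). Against the window of the Gdf3 body, the corresponding numbers were 42 and 7 libraries (exact McNemar p = 3.62e-07, adjusted p = 1.81e-06). Of the windows directly beside that of Nanog, the gene-free window upstream differed from it (26 and 12 libraries, exact McNemar p = 0.0336, adjusted p = 0.0419), and the Slc2a3 window did not pass (28 and 16 libraries, adjusted p = 0.0961).

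**Figure D1:**
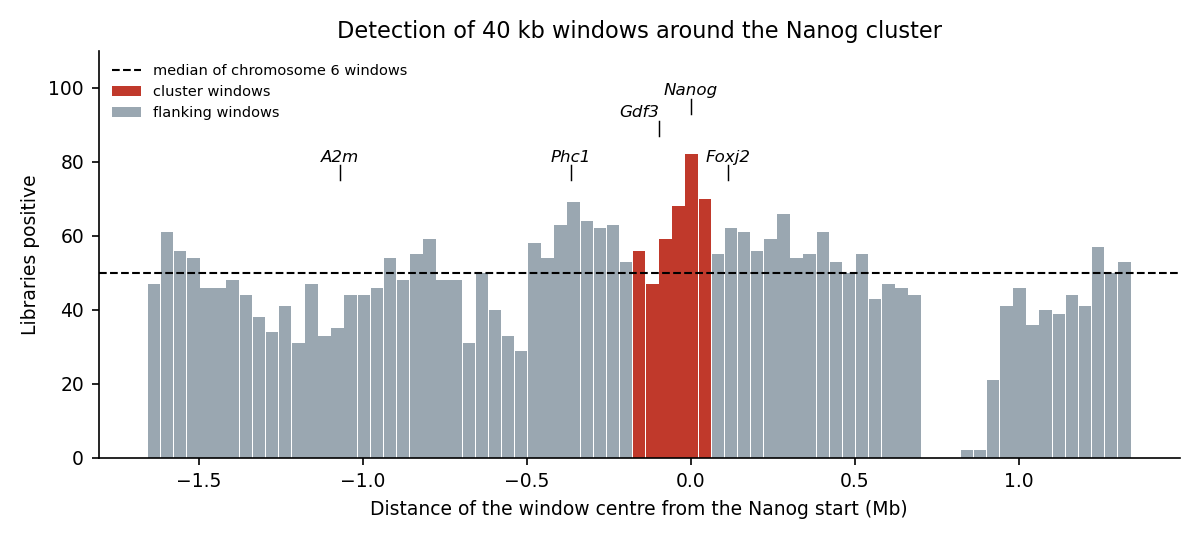
Number of libraries in which each 40 kb window was positive, against the distance of the window centre from the Nanog start in Mb. Red bars are the 6 cluster windows and grey bars the flanks, the dashed line is the chromosome 6 median of 50 libraries, and the tallest bar, at 82 libraries, is the Nanog window.

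Base composition is one property in which windows differ. The Nanog window has a GC content of 44.3%, and of 230 other chromosome 6 windows within 0.5 percentage points of it, with a median of 54 libraries, 2 were positive in as many libraries or more. The gene-free window upstream of Nanog and the Slc2a3 window were also high among windows of like GC content, at the 96.0th and 97.1th percentile. The Dppa3 window lay at the 65.2th percentile and the window of the Gdf3 body at the 20.0th, so within the cluster the raised detection was on the Nanog side. High detection was not particular to that side. The window of the Phc1 start was positive in 69 libraries and a Clec4a4 window in 66, the 96.9th and 94.7th percentile of positive chromosome 6 windows. The medians of the proximal and distal flank were 48 and 46.5 libraries.

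Taken as a whole, the cluster was detected more often than the rest of its chromosome. A library held on average 25.6% of the cluster windows and 19.9% of the other chromosome 6 windows, a difference of 5.72 percentage points ± 1.98 (SE over all libraries). The difference was above 0 in 96 libraries, since 133 libraries held 0 cluster windows and 16 held all 6 (sign-flip permutation test, two-sided, p = 0.00428, adjusted p = 0.0128 over 3 stretches). The call was lost without the 5 libraries of coverage below 5% and the 47 of 25% or more, where the difference was 5.09 points (permutation test, adjusted p = 0.0614).

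Neither flank was called higher than the rest of the chromosome. The 37 windows before the cluster, which hold the A2m and Mug protease inhibitor genes, Klrg1, a receptor gene of lymphocytes, and Phc1, a Polycomb gene, differed from the rest of the chromosome by -0.591 points ± 1.38 (SE, adjusted p = 0.670). The 32 windows after it, with Foxj2, C3ar1, Necap1 and the Clec4 lectin and Vmn2r pheromone receptor genes, were lower by -3.08 points ± 1.29 (SE, permutation p = 0.0176, adjusted p = 0.0264). This flank holds 6 windows positive in fewer than 25 libraries, chr6:123360001-123600000 over Vmn2r20, Vmn2r21 and Vmn2r22, 3 of them positive in 0 libraries although the assembly holds no unknown bases there. With windows under 25 libraries left out of both the flank and the comparison, the difference was -0.0657 points ± 1.53 (SE, 26 windows of the flank), a description with no test, since these windows were chosen by their low detection after the data were seen. The call was also lost without the libraries of extreme coverage (adjusted p = 0.0705) and against all other autosomal windows (adjusted p = 0.0855).

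Libraries with any cluster window most often held a single one. Of all libraries, 29 held 1 cluster window and 22 held 5 of the 6. Among 3572 stretches of 6 windows on chromosome 6, a median of 13 libraries held 5 windows, and the cluster lay at the 97.2th percentile of that count. It lay at the 81.7th percentile for holding 1 window and at the 78.1th for holding all 6. The windows of the Gdf3 body, of Dppa3 and of Nanog were all positive in 31 libraries of the 93 with any of them, or 33.3%, against a median of 28% over 3606 triples of the same spacing, the 80.4th percentile.

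By experiment, detection of the Nanog window exceeded that of the Dppa3 window in 9 of 11 and equalled it in the other 2. In the 20 groups it was higher in 11, equal in 7 and lower in 2, which were large-kit (2 and 3 libraries) and protocol-c (1 and 2). In the full collection, 20 of 54 libraries held the Nanog window and 11 the Dppa3 window, and in the cresyl-violet-test 8 and 6 of 26 did. The equal counts were 10 and 10 of 20 in pi-staining-and-freezing, and 0 and 0 of 10 in the sybrgold-test, where 8 libraries held 0 cluster windows and the other 2 held at most 2. The cluster was above the other chromosome 6 windows in 9 experiments, from 0.210 points in large-vs-small-kit to 20.1 points in pk-volume-titration, and below in the cresyl-violet-test (-0.756) and the sybrgold-test (-11.4).

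**Figure D2:**
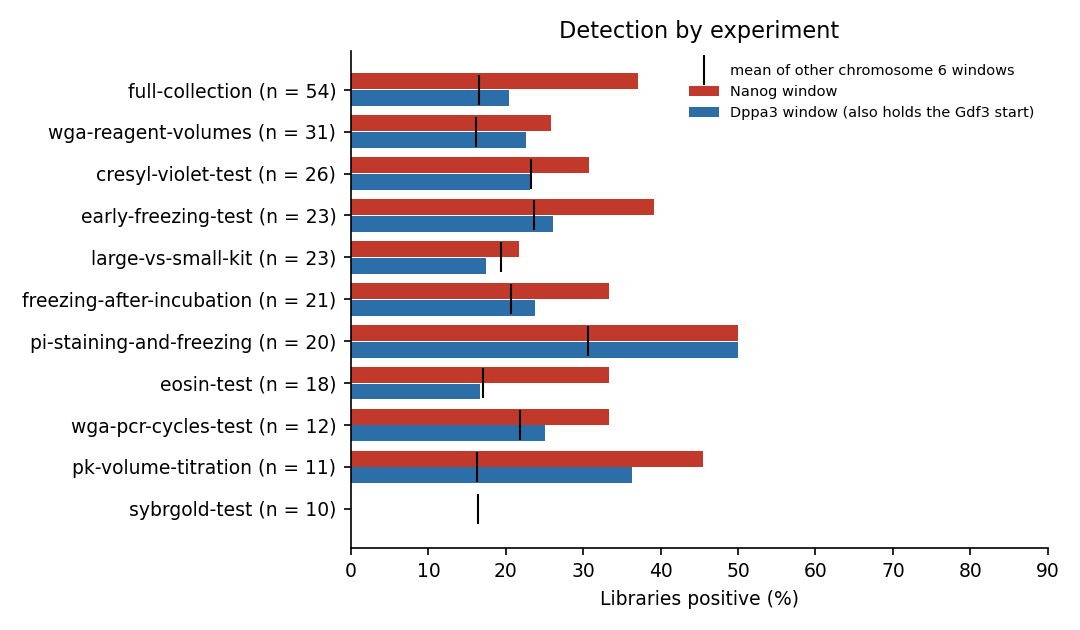
Percent of libraries positive for the Nanog window (red bars) and for the Dppa3 window, which also holds the Gdf3 start (blue bars), in each of the 11 experiments, with the number of libraries in brackets. Black ticks are the mean percent of other chromosome 6 windows, and the red bar is longer than the blue one in 9 experiments.

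These differences between experiments were within the spread of the libraries (F = 1.00, permutation p = 0.441, 11 experiments). Of 12 contrasts between protocols, 0 had an adjusted p under 0.05 and 0 an unadjusted p under 0.05 in permutation tests, and none changed that under medians or with the 4 inner windows. The nearest was in the wga-pcr-cycles-test. The 4 libraries with 20 cycles held 2, 0, 4 and 4 cluster windows, the 5 with 23 cycles held 0, 0, 0, 1 and 5, and the 3 with 25 cycles held 0 each. Relative to other chromosome 6 windows, the 20-cycle arm exceeded the 25-cycle arm by 59.0 points (exact permutation test, p = 0.0571 and 0.375 after adjustment), although 1 library of 20 cycles was also at 0 windows. On this measure the lowest library of 20 cycles, at -7.02 points, lay above the highest of 25 cycles, at -14.3. The exact permutation p of 0.0571 was thus the smallest that these values could give in this direction, and the contrast could not pass 0.05. In the pk-volume-titration, the 5 libraries of 1ul-mdc-pk held 6, 0, 1, 5 and 5 cluster windows and the 6 of 2ul-mdc-pk held 5, 1, 0, 0, 1 and 0, and their difference of -29.5 points had an exact permutation p of 0.245. With arms this small, a contrast that was not called does not show that the arms were alike.

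The windows of Nanog and Dppa3 were found together more often than their separate detection would give. Of the 59 libraries with the Dppa3 window, 51 also held the Nanog window, or 86.4%, whereas 31 of the 190 libraries without it did, or 16.3%. From the detection of each, 19.4 libraries with both would arise if they were independent. Normalized linkage, D′, which is co-segregation beyond that product over the largest value it could take, was 0.798 ± 0.0648 (SE over 1000 redraws of the libraries with replacement). The association was called at an adjusted p of 3.69e-19 in a Cochran-Mantel-Haenszel test stratified by library coverage and adjusted over all 268612 pairs of chromosome 6 windows up to 3 Mb apart. A call alone says little at this distance. All 15 pairs within the cluster were called, with an adjusted p of at most 1.22e-06, and 99.9% of chromosome 6 pairs from 40 to 200 kb apart were.

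The comparison with pairs of equal distance is the informative one. Over 3621 chromosome 6 pairs 80 kb apart, D′ averaged 0.546 with an SD of 0.0851, which puts Nanog with Dppa3 at a z-score of 2.96 ± 0.562 (SE), the 99.8th percentile, with 5 pairs at or above it. The Nanog window and the window of the Gdf3 body, 120 kb apart, shared 40 libraries, which is 85.1% of the libraries with the latter. Their D′ was 0.778 ± 0.0752 and their z-score 2.98 ± 0.630, with 12 of 3619 pairs at or above it. The window of the Gdf3 body and the gene-free window upstream of Nanog, 80 kb apart, shared 39 libraries, with a D′ of 0.766 ± 0.0722 and a z-score of 2.58 ± 0.628. These 3 pairs were those of the 15 with a z-score of 2 or more, against 2.24% of all chromosome 6 pairs at these distances.

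**Figure D3:**
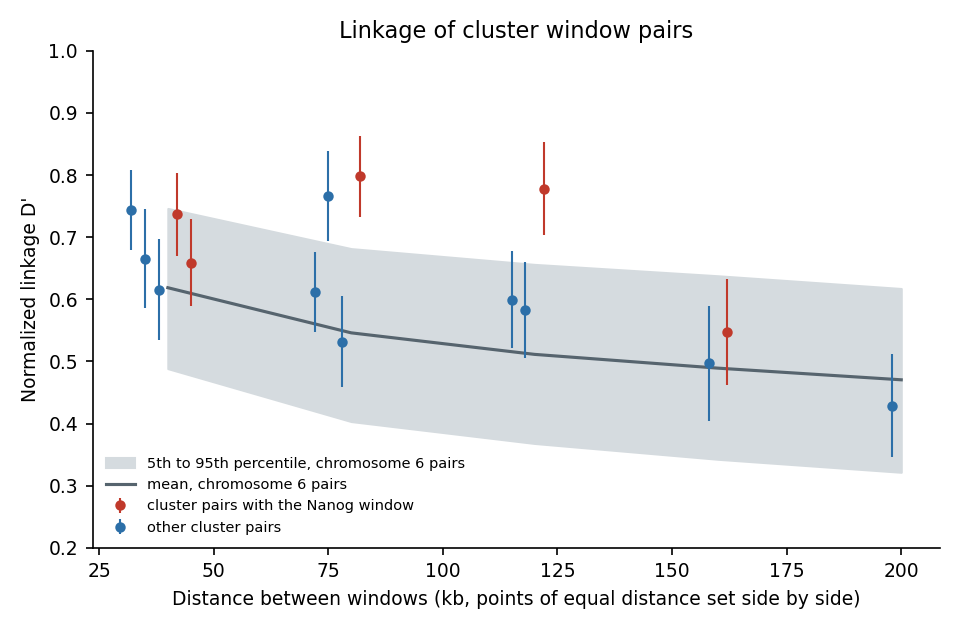
Normalized linkage D′ of the 15 pairs of cluster windows against the distance between the windows in kb, with bars of 1 SE over redrawn libraries. The line is the mean and the grey band the 5th to 95th percentile of chromosome 6 pairs of equal distance, and 2 red points (pairs with the Nanog window) and 1 blue point (the Gdf3 body with the window upstream of Nanog) stand clear above the band.

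Pairs of adjacent windows had lower z-scores than these 3. The gene-free window upstream of Nanog shared 56 libraries with the Nanog window (D′ 0.737 ± 0.0669, z-score 1.48 ± 0.617, the 93.8th percentile) and 48 with the Dppa3 window (D′ 0.744 ± 0.0643, z-score 1.57 ± 0.597, the 94.6th percentile). The Dppa3 window and the window of the Gdf3 body, which hold the start and the rest of Gdf3, shared 35 libraries, with a D′ of 0.665 ± 0.0798 and a z-score of 0.587 ± 0.729. Adjacent windows were linked at 0.619 on average on this chromosome, and the differences from the 3 highest pairs were not tested.

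The position 60 kb downstream of Nanog behaved like an average neighbour. The Slc2a3 window shared 54 libraries with the Nanog window (D′ 0.659 ± 0.0707, z-score 0.509 ± 0.644), 42 with the Dppa3 window (z-score 0.982 ± 0.651) and 49 with the gene-free window upstream of Nanog (z-score 0.768 ± 0.560). Over all 15 pairs, 12 had a z-score above 0 and the mean was 1.02 ± 0.321 (SE), the 97.0th percentile of 3572 stretches of 6 windows. Over the 4 inner windows, from the Gdf3 body to Nanog, it was 2.03 ± 0.348, with 6 of 3596 stretches of 4 windows at or above it.

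How far the cluster stood out depended on how linkage was measured, and on detection. By normalized pointwise mutual information, another scaling of co-segregation, the z-score of Nanog with Dppa3 was 1.22 (the 89.6th percentile), that of Nanog with the Gdf3 body 0.398, and the mean over the cluster 0.0960. By the phi coefficient and the log odds ratio, both added after the data were seen, Nanog with Dppa3 had z-scores of 1.67 and 1.93, and the means were 0.433 and 0.268. Nanog with the gene-free window upstream had z-scores of 0.362 by mutual information, 0.937 by phi and 0.521 by log odds ratio. D′ compares a pair with the largest overlap that their detection allows, and mean D′ was higher where a pair included a window as often detected as that of Nanog. Among 59 chromosome 6 pairs at 80 kb whose windows were each within 10 libraries of the counts of Nanog and Dppa3, D′ averaged 0.624, and 0 of them reached 0.798 (z-score 2.14, chosen after the data were seen). For Nanog with the Gdf3 body, 14 such pairs were found and 1 was at or above it (z-score 1.64). The mean over the inner windows was computed by D′ alone. By mutual information, the z-scores of the 6 pairs of inner windows ran from -0.0976 to 1.22, against 0.587 to 2.98 by D′. The z-score of Nanog with Dppa3 thus stayed above 0 with each measure, and its size did not hold.

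The full collection contributed to these values. In its 54 libraries, all 11 with the Dppa3 window held the Nanog window, for a D′ of 1 and a z-score of 1.84 within that collection. In the libraries outside it, D′ was 0.756 and the z-score 2.20. For Nanog with the Gdf3 body the z-scores were 1.89 and 2.29. For Nanog with the gene-free window upstream they were 1.67 and 0.404, and without wga-reagent-volumes the z-score of this pair was 2.62. Over all 15 pairs, mean D′ was 0.758 in the full collection and 0.611 in the others, a difference of 0.147 that did not pass a permutation test (p = 0.117), and by mutual information the difference was 0.0162 (permutation p = 0.835). Without the full collection the mean z-score of the cluster was 0.590, and with each of the other 10 experiments left out it was at most 1.40. Outside it, Nanog and Dppa3 were together in 10 of 10 libraries with Dppa3 in pi-staining-and-freezing, 6 of 6 in the cresyl-violet-test, and 4 of 4 in the pk-volume-titration. They were together in 5 of 6 in the early-freezing-test, 4 of 5 in freezing-after-incubation, 3 of 4 in large-vs-small-kit, 2 of 3 in the eosin-test, 2 of 3 in the wga-pcr-cycles-test and 4 of 7 in wga-reagent-volumes.

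**Figure D4:**
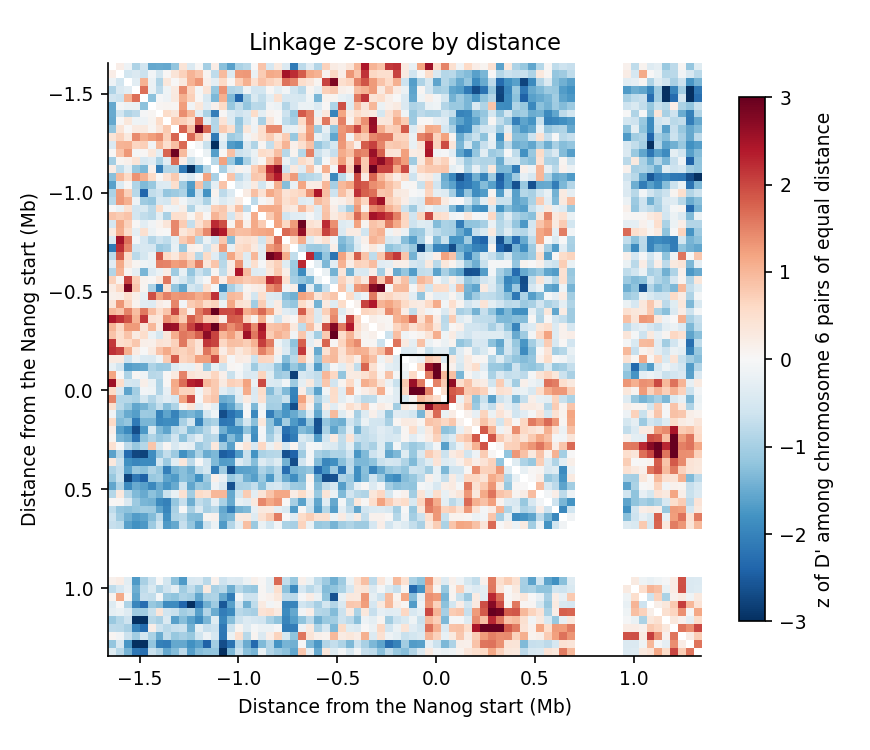
Linkage of all window pairs of the locus, as the z-score of D′ among chromosome 6 pairs of equal distance, with both axes in Mb from the Nanog start. The black square holds the 15 cluster pairs (mean z-score 1.02), the blue blocks beside it are pairs of the proximal with the distal flank (mean -0.841), and white bands are windows positive in fewer than 25 libraries.

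Around the cluster, windows of the same flank were linked more than windows of opposite flanks. Pairs within the proximal flank had a mean z-score of 0.376 ± 0.240 (SE, 666 pairs, 95% interval -0.226 to 0.711) and pairs within the distal flank 0.338 ± 0.265 (325 pairs, -0.282 to 0.743). Pairs that reach from one flank to the other averaged -0.841 ± 0.338 (962 pairs), with a 95% interval from -1.30 to 0.00512, and 16.8% of them were above 0. Each of these intervals included 0, while the mean of both flanks minus that of opposite flanks was 1.20 ± 0.247 (95% interval 0.406 to 1.35). The cluster sided with neither flank. Its mean z-score was -0.0566 ± 0.324 with the proximal and -0.128 ± 0.322 with the distal flank, and the difference of 0.0710 had a 95% interval from -0.726 to 0.828. The linkage of single cluster windows with the 400 kb before and after them gave the same picture, since the 95% interval of the difference included 0 for each of the 6 windows. For the Nanog window these means were 0.936 ± 0.432 before and 0.697 ± 0.446 after. The measures over the flanks were added after the data were seen.

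The insulation score, the mean D′ across a border between the 400 kb before and the 400 kb after it, fell through the cluster. It was 0.403 ± 0.0386 (SE) at the border before the Dppa3 window, which cuts Gdf3, 0.391 ± 0.0377 before the Nanog window and 0.388 ± 0.0384 after it. The lowest value, 0.376 ± 0.0387, lay 102 kb after the Nanog start at position 122760000, between the window with the start of Slc2a3 and that of Foxj2, a forkhead gene. This border was called as a local minimum with a prominence of 2.46 SD, and lay at the 19.8th percentile of 3634 scored borders. The same rule called 149 boundaries on chromosome 6. Its depth depended on the measure and the libraries. In SD from the chromosome mean, the score of -0.852 ± 0.799 (SE) at this border became -1.39 by mutual information and -1.43 by log odds ratio. It was -1.36 without the cresyl-violet-test, -1.30 without the early-freezing-test, -0.508 without the full collection and -0.444 without freezing-after-incubation. At the same border it was -0.484 without libraries of extreme coverage and -0.182 with a square of 240 kb, settings in which another border was lowest. The score rose to 0.466 ± 0.0347 at position 121920000 in front of Mug2 and to 0.464 ± 0.0399 at position 123120000 among the Clec4 genes. These borders were picked as the highest of a searched span on each side, which on the distal side ended at 123.2 Mb, and the other as the lowest, so their differences of 0.0899 and 0.0882 are a description with no test. Beyond that span, past the unscored borders on the distal side, the score reached 0.495.

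**Figure D5:**
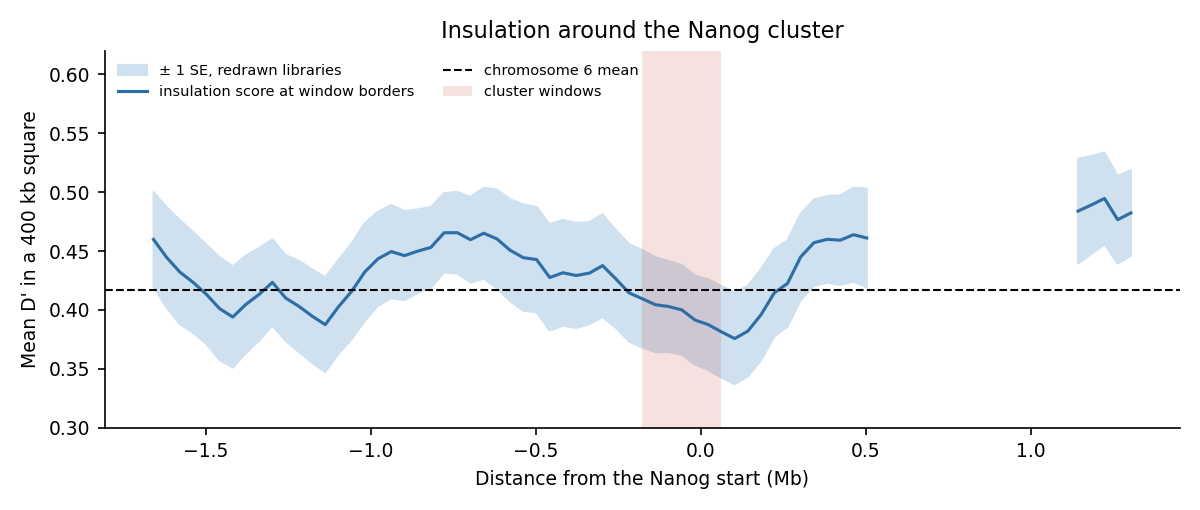
Insulation score (mean D′ in a square of 400 kb) at each window border against the distance from the Nanog start in Mb, with a band of 1 SE over redrawn libraries and the chromosome 6 mean as a dashed line. The score falls through the shaded cluster windows to 0.376 at 102 kb after the Nanog start, and gaps are borders with too few scored pairs.

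The exact place of the minimum was poorly fixed. Searched from 122.2 to 123.2 Mb, it fell within 1 window of position 122760000 in 59.5% of redraws of the libraries, with 95% of positions from 122200000, the edge of the searched span, to 122840000. The score at the borders of the Nanog window differed from the minimum by 0.0157 (95% interval -0.0169 to 0.0530) and 0.0119 (-0.0132 to 0.0394), which does not place Nanog on one side of it. With squares of 240 kb and 600 kb the lowest value was at 123.2 Mb, the other edge of that span, and at 122.52 Mb. Other minima in the locus were at positions 121240000, between Usp18 and the transporter gene Slc6a13, and 121520000, before A2m.

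With the families around it, the linkage of the cluster by D′ was not set apart from other pairs of the same distance beyond its error. Mean z-scores were -0.322 ± 0.407 with the 7 windows of the A2m and Mug genes, 0.457 ± 0.442 with the window of Klrg1, -0.317 ± 0.341 with the 10 windows of Clec4 genes and -0.103 ± 0.411 with the 10 usable windows of Vmn2r genes, and each 95% interval included 0. By mutual information, whose error was not computed, the means were lower, at -0.810 with the A2m and Mug genes, -0.732 with the Clec4 genes and -0.642 with the Vmn2r genes. The pair test called 41 of the 44 partners of the Nanog window within 1 Mb and 43 of the 44 of the Dppa3 window, where 96.7% of all chromosome 6 pairs up to 1 Mb were called. From 1 to 3 Mb it called 82 and 92 of 100, against 64.9%. The Nanog and Dppa3 windows were positive in 82 and 59 libraries, against a chromosome 6 median of 50. These shares were not set against those of windows of like detection, and the effect of detection on them was not tested.

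For each start window, the 3 partners at 200 kb or more with the highest z-score were chosen in the libraries outside the full collection and read again in its 54 libraries. For Nanog, these were a gene-free window 960 kb before it, with z-scores of 1.50 in the choice and -0.266 in the full collection, a window of Vmn2r19 (1.41 and 0.0371) and the window of Klrg1 (1.39 and -0.218). For Dppa3, they were a window of the synaptic gene Iqsec3 (1.53 and -0.296), another window of Vmn2r19 (0.642 and -0.330) and a gene-free window 480 kb before it (0.628 and 0.681). The last alone kept its size, and as the largest of 60 candidates the chosen values were bound to be high.

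The Nanog window showed no called association with other chromosomes. Of 55389 windows of other autosomes, 0 were called as found with it more often, a share of 0%, and 0 less often, while 861 and 849 had an unadjusted p under 0.05 in the stratified test, of which the former are 1.55%. Fisher's exact test without strata also called 0, with 3248 more often at an unadjusted p under 0.05. A list of 30 genes of the pluripotency network was followed, of which 29 were matched by symbol, and Dppa2 and Dppa4 share a window. The start windows of 0 of the 29 were called and 0 had an unadjusted p under 0.05 with the Nanog window, with odds ratios of median 1.05, against 0.989 over all windows tested. The highest was 1.89 for Tet2, an enzyme that oxidises methylcytosine (22 libraries together, 16.6 from the strata, adjusted p = 1). The lowest was 0.648 for Jarid2, a subunit of Polycomb complex 2 (20 together, 24.5 from the strata, adjusted p = 1). Pou5f1, which encodes Oct4, had an odds ratio of 1.05 and Sox2 of 0.797, the former together with Nanog in 20 libraries and the latter in 17, close to the 19.5 and 18.9 from the strata. The Dppa3 window likewise had 0 calls.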

How the data were processed

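The authors mapped the reads to mm9 (Bowtie2 version 2.1, per the submitters' processing notes) and dropped duplicates. A 40 kb window with at least 4 reads in a library was positive. The deposited table gives 1 for a positive window and 0 otherwise, a call and not a count, for libraries that passed the authors' quality control. Library coverage ran from 3.40% to 45.2% of all windows (median 17.1%). All 249 columns were matched to labels, 0 were left over, and no pair of libraries held identical calls.

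D′ was computed for windows positive in at least 25 libraries and set as a z-score among chromosome 6 pairs of equal distance up to 4 Mb. Errors came from 1000 redraws of the libraries with replacement. Detection was tested with sign-flip and label permutations (100000 resamples, exact for arms under 10), and pairs with the Cochran-Mantel-Haenszel test over 5 strata of library coverage. P-values were adjusted by Benjamini-Hochberg at 0.05. Boundaries were minima with a prominence of at least 0.5 SD. The computation used Python 3.11.15, numpy 2.4.6, scipy 1.17.1 and pandas 2.3.3. The stratified test, D′, Fisher's exact test, the sign-flip test and the F test were checked on simulated data. The McNemar tests and the label permutations between arms and for the linkage of the full collection were not. Genes and sequences were taken from GENCODE vM1 and NCBIM37, whose chromosome 6 length equals that of the table. The genes named in the text were the 3 members, the other genes of the cluster and a fixed set of neighbours, with the start windows and the windows 45 kb upstream and 60 kb downstream of Nanog. Values of 1 cluster window by itself are not reported here. The members and gene lists were chosen with earlier results of these data known. Alternatives covered the measure of linkage, the libraries, the window minimum, the comparison windows and the square.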

Additional observations from a re-analysis of the deposited data

Results flagged for a closer look

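In the 2ul-mdc-pk arm of the pk-volume-titration, replicate 1 stood apart from the other 5 libraries in the detection of the Nanog cluster. It held 5 of the 6 cluster windows and 8.76% of the other chromosome 6 windows, a difference of 74.6 percentage points, while the others lay between -29.9 and 2.04 points. Of 9 groups of 4 to 10 libraries examined in this way, 1 had such a library. How often chance sets a library apart was not estimated for this measure. Among all libraries, 133 held 0 cluster windows and 22 held 5. The cause was not tested.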

How the results depend on the processing

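No paired analysis was possible because the labels give no replicate numbers, and the numbers used here only name libraries. Detection of the cluster (5.72 points) kept its sign in each of 5 alternatives and lost its call without libraries of extreme coverage (5.09 points). Detection of the distal flank fell below the threshold in that setting (-2.70 points) and against all other autosomal windows (-2.58 points), and without its 6 windows positive in fewer than 25 libraries it was 0.437 points, or -0.0657 with such windows also left out of the comparison, values that had to rise because the windows were chosen by low detection. The contrast of cresyl-violet with unstained, 1.53 points, turned to -0.555 with the 4 inner windows. With 1 library left out of the small arms, 20 minus 23 cycles was 24.1 to 45.2, 20 minus 25 cycles 49.8 to 71.0, 23 minus 25 cycles 17.5 to 33.6, and 2 minus 1 µl of proteinase K (either arm) -43.1 to -16.6 points, none called. The mean z-score of the cluster pairs (1.02) was 0.0960 by mutual information, 0.433 by phi, 0.268 by log odds ratio and 0.583 among pairs of like detection. It was 0.590 without the full collection and 0.590 to 1.40 with each experiment left out. Over the inner windows it was 2.03 by D′, and no mean was computed there by another measure. By mutual information, phi and log odds ratio, the mean z-score with the A2m and Mug genes was -0.810, -0.731 and -0.748, and with the Vmn2r genes -0.642, -0.569 and -0.578. With the Clec4 genes it was -0.732 by mutual information and -0.730 by log odds ratio. The mean within the proximal flank was 0.126 by mutual information, 0.0508 by phi and 0.0749 without libraries of extreme coverage. That of the cluster with the proximal flank was -0.548, -0.431 and -0.502 by mutual information, phi and log odds ratio, and with the distal flank -0.590 by mutual information and -0.559 by log odds ratio. The lowest border moved to the edges of the searched span, 122.2 Mb without libraries of extreme coverage and 123.2 Mb with a square of 240 kb, and to 122.52 Mb with one of 600 kb, and stayed at 122.76 Mb with each experiment left out. Pairs of opposite flanks kept a mean z-score below 0 in these 5 alternatives, from -1.14 to -0.551. Most other values kept their side of the threshold or moved by less than their error. The number of libraries limits the precision, read depth is unknown, and the causes of the other shifts were not tested.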
